A study of Mus musculus with 2 samples.

Results

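Neutrophil granule and calprotectin genes were described in RNA-seq of group 2 innate lymphoid cell (ILC2) progenitors. They are the 10 genes S100a8, S100a9, Ngp, Camp, Ltf, Lcn2, Mpo, Elane, Prtn3 and Ctsg. They were chosen by symbol, and all 10 were found among the 27179 genes with a value. Each of the 2 libraries, pool 2 and pool 1, held RNA of progenitors that flow cytometry had separated out of the bone marrow of 8 wild-type C57BL/6 mice, pooled at an age of 8 weeks. No other genotype, treatment or age was part of the data, so values are compared between the pools and between genes. Which antibodies defined the sort was not stated. The column heading inside each file names the other sample (0 of 2 headings matched their own), and if the headings rather than the deposited assignment are right, pool 2 and pool 1 change places in every ratio.

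Neutrophils pack antimicrobial proteins into granules that are filled in a set order as the cell matures in bone marrow. Primary (azurophil) granules are made at the promyelocyte stage and carry myeloperoxidase (Mpo) and the serine proteases neutrophil elastase (Elane), proteinase 3 (Prtn3) and cathepsin G (Ctsg). Secondary (specific) granules follow and carry lactoferrin (Ltf), the cathelicidin precursor (Camp), neutrophilic granule protein (Ngp) and lipocalin 2 (Lcn2). S100a8 and S100a9 encode the subunits of calprotectin, a calcium- and metal-binding dimer that fills the cytosol of mature neutrophils. ILC2 are lymphoid cells that make type 2 cytokines, and granule proteins are not among their known products.

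In the mm10 genome the genes lie on 6 chromosomes. S100a8 (Entrez ID 20201, chromosome 3, 90669071 to 90670034, plus strand) and S100a9 (ID 20202, 90692630 to 90695721, minus strand) are neighbours with 22595 bases between them. Prtn3 (ID 19152, chromosome 10, 79879667 to 79883174) and Elane (ID 50701, 79886312 to 79888216) are 3137 bases apart on the plus strand. Camp (ID 12796, 109847377 to 109849456, minus), Ngp (ID 18054, 110419808 to 110423012, plus) and Ltf (ID 17002, 111019292 to 111042766, plus) share chromosome 9. Lcn2 (ID 16819) is at 32384637 to 32387739 on chromosome 2, Mpo (ID 17523) at 87793784 to 87804412 on chromosome 11 and Ctsg (ID 13035) at 56099885 to 56102574 on chromosome 14. Of the 50-base stretches of each gene's longest coding transcript, 0 occurred in a transcript of another gene (GENCODE M21).

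The promoters of all 10 genes, from 250 bases before to 50 bases after the annotated start (RefSeq, GRCm38.p6), were searched on both strands for 5 motifs. The letters TTGCNNAA, a form of the site bound by C/EBP factors of granulocyte development, were found in 4 of the 10, against 10.8% of all 32851 promoters. These were S100a9 (236 bases before the start), Ngp (138 and 11 bases before), Ltf (75 bases before) and Lcn2 (216 bases before), and 0 of the 4 primary granule promoters held them. AGGAAG, which contains the core bound by the myeloid factor PU.1, was in 8 of 10 promoters, all but those of S100a9 and Ngp, against 35.4% of all promoters. TGTGGT (RUNX) was in those of S100a9, Ltf and Ctsg (3 of 10, against 16.8%), TAACGG (MYB) in 0 (against 2.76%) and TATAAA, the core promoter box, in 3 (against 13.6%). The TATAAA of S100a8 began 30 bases before the start, that of S100a9 at the annotated start itself and that of Ctsg 237 bases before it on the other strand. No matches of different motifs overlapped, and a match is a run of letters, not a shown site. The windows of 6 genes are printed because they cover the calprotectin pair and examples of each granule class: S100a8 (chr3:90668821-90669120, plus), S100a9 (chr3:90695672-90695971, minus), Ngp (chr9:110419558-110419857, plus), Lcn2 (chr2:32387690-32387989, minus), Elane (chr10:79886062-79886361, plus) and Mpo (chr11:87793534-87793833, plus). Each runs 5′ to 3′ along the gene's strand, and capitals mark matches to TTGCNNAA or AGGAAG on either strand (AGGAAG reads CTTCCT when it lies on the other strand).
S100a8: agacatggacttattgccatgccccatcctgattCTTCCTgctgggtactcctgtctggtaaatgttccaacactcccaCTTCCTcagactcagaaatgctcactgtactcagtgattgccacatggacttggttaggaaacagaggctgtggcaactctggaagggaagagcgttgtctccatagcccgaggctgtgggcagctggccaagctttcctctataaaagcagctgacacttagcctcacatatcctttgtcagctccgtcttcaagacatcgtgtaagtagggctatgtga
S100a9: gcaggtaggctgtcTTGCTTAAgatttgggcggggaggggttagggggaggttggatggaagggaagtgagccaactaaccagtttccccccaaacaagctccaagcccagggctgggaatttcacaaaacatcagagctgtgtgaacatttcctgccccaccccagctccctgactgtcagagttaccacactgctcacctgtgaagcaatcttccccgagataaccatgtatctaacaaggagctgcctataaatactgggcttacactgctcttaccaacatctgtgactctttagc
Ngp: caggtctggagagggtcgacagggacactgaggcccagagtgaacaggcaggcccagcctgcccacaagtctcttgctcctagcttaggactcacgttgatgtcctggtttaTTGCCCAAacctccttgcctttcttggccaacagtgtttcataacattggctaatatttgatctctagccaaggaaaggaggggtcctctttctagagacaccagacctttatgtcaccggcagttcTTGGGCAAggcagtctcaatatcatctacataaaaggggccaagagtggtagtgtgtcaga
Lcn2: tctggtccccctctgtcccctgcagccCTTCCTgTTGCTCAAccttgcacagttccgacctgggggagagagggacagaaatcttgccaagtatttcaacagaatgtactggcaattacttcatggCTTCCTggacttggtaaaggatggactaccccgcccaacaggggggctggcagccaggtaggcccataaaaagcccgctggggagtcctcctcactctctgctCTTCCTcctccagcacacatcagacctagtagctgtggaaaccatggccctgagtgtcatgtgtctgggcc
Elane: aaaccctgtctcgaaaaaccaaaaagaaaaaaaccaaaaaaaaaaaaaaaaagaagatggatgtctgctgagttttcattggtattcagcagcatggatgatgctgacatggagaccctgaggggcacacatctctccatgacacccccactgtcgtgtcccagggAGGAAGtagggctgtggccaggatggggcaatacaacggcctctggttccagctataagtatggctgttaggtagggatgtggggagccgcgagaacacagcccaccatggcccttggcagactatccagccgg
Mpo: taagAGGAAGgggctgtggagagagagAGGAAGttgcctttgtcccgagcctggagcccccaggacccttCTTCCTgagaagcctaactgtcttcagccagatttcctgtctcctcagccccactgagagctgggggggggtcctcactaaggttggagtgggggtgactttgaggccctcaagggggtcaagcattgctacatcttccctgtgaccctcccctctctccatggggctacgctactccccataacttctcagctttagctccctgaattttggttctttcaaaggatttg

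The libraries held 19834586 reads in pool 2 and 20216146 in pool 1, found from the steps between the deposited RPKM values (reads scaled by gene length and library size). At this depth 3 reads in a gene of 1 kb equal 0.151 RPKM in pool 2 and 0.148 RPKM in pool 1. All 16 listed ILC2 markers reached 1 RPKM in both pools, with summed levels of 5475 RPKM in pool 2 and 5469 RPKM in pool 1. The neutrophil genes were also present in both pools. The 10 genes summed to 2509 RPKM in pool 2 and 1071 RPKM in pool 1, which was 0.526% and 0.222% of all RPKM in those pools. As a share of reads rather than of RPKM they held 0.174% of pool 2 and 0.0831% of pool 1. In bulk RNA, a smaller number of cells of a type and less RNA per cell cannot be told apart.

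Calprotectin transcripts were the most abundant of the 10. S100a9 was at 842 RPKM in pool 2 and 324 RPKM in pool 1, which placed it 54th in pool 2 and 175th in pool 1 among all genes. S100a8 was at 755 RPKM in pool 2 and 288 RPKM in pool 1. The subunits kept nearly the same proportion, with S100a9 at 1.12 times the level of S100a8 in pool 2 and 1.13 times in pool 1. Together they made up 63.6% of the summed RPKM of the 10 genes in pool 2 and 57.2% in pool 1.

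Among the secondary granule genes, Ngp and Camp stood above Lcn2 and Ltf in both pools. Ngp, related to the cathelicidins, was at 291 RPKM in pool 2 and 121 RPKM in pool 1. Camp, which encodes the precursor of the antimicrobial peptide CRAMP, was at 218 RPKM in pool 2 and 85.4 RPKM in pool 1. Lcn2, whose product captures bacterial iron carriers, was at 108 RPKM in pool 2 and 53.4 RPKM in pool 1. Ltf, whose product binds iron itself, was lowest of the class at 37.7 RPKM in pool 2 and 20.7 RPKM in pool 1. For each of these genes pool 2 was the higher library. The 4 genes held 26.1% of the summed RPKM of the 10 in pool 2 and 26.2% in pool 1.

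The primary granule genes were all below S100a9, S100a8, Ngp and Camp in level in both pools. Mpo, which makes hypochlorous acid from hydrogen peroxide, was at 93.0 RPKM in pool 2 and 71.7 RPKM in pool 1. Elane was at 70.6 RPKM in pool 2 and 45.0 RPKM in pool 1. Prtn3, a close relative of elastase, was at 59.3 RPKM in pool 2 and 38.0 RPKM in pool 1. The order Mpo, Elane, Prtn3, Ctsg was the same in both pools. Ctsg, a protease with chymotrypsin-like specificity, was at 34.8 RPKM in pool 2 and 23.7 RPKM in pool 1. Elane stood at 1.19 times the level of Prtn3 in either pool. The class held 10.3% of the summed RPKM of the 10 in pool 2 and 16.7% in pool 1.

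**Figure D1:**
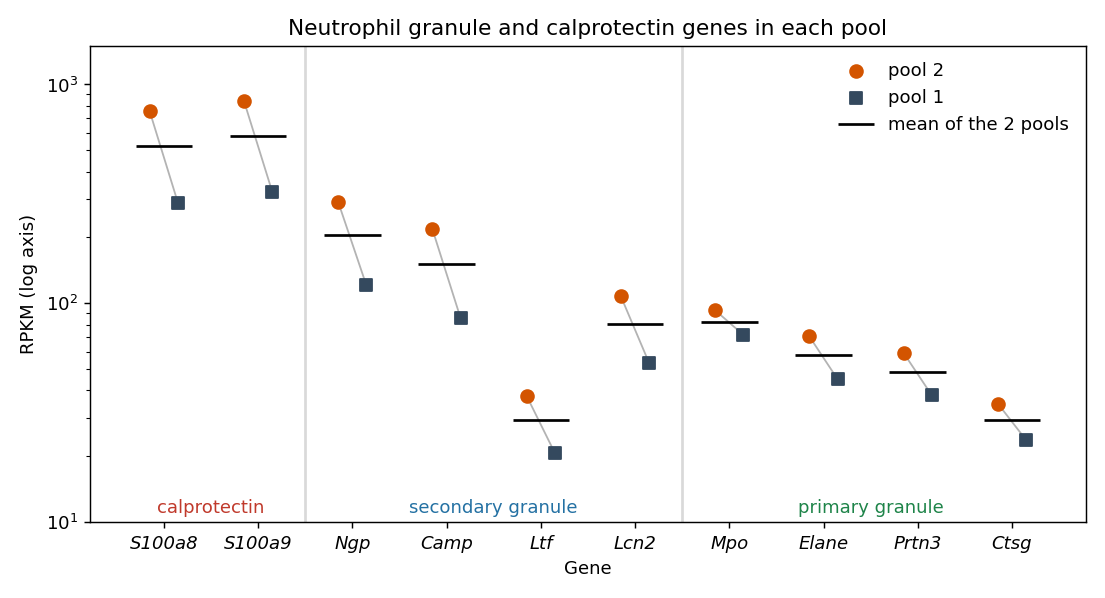
RPKM (log axis) of each of the 10 genes in pool 2 (circles) and pool 1 (squares), with a bar at the mean of the 2 pools. Pool 2 is the higher library for all 10 genes, from 842 and 324 RPKM for S100a9 at the top to 34.8 and 23.7 RPKM for Ctsg, the lowest in pool 2.

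Ranked by level, 6 of the genes held the same place in both pools: S100a9, S100a8, Ngp and Camp at the top, then Elane and Prtn3 in the seventh and eighth places. The other 4 changed places in pairs that cross the classes. Lcn2 was above Mpo in pool 2 (1.16 times its level) and below it in pool 1 (0.744 times). Ltf was above Ctsg in pool 2 (1.08 times) and below it in pool 1 (0.871 times). By means over the pools with their SD (n = 2), Mpo at 82.4 ± 15.1 RPKM and Lcn2 at 80.5 ± 38.4 did not differ beyond their spread. Nor did Ctsg at 29.3 ± 7.83 and Ltf at 29.2 ± 12.1 RPKM. S100a9 at 583 ± 366 and S100a8 at 521 ± 329.95 also lay within each other's spread, though S100a9 was the higher in each pool.

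Genes at 1 RPKM or more in both pools, here called detected, numbered 11013 and included all 10. All 10 were higher in pool 2, as were 57.3% of detected genes. The ratio of pool 2 over pool 1, taken on RPKM + 0.1, reached 2 for 5 of the 10, against 1.6% of detected genes that were at least 2-fold higher in pool 2, 0.962% that were at least 2-fold higher in pool 1 and 2.56% that were 2-fold apart either way. At a fold of 1.5, 8 of the 10 were higher in pool 2, against 5.86% of detected genes. Of the 3145 detected genes with mean levels in the range of these 10, the share at least 2-fold higher in pool 2 was 0.954%. The median log2 ratio of the 10 was 0.94, beside 0.04 over all detected genes. With 1 library a side there is no replicate check and no test. Intervals beside the ratios are exact 95% counting intervals from the recovered reads, cover counting error only, and compare these 2 libraries.

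The ratios differed by class, and also within the secondary granule class. The calprotectin genes had the highest, 2.62 for S100a8 (2.5 to 2.75, from 5867 reads in pool 2 and 2282 in pool 1) and 2.6 for S100a9 (2.49 to 2.71, from 8153 and 3197 reads in those pools). Camp followed at 2.55 (2.38 to 2.75) and Ngp at 2.41 (2.30 to 2.52). Lcn2 was at the threshold, with a ratio of 2.02 (1.86 to 2.19), and was no longer called with a pseudocount of 1 RPKM or after centring the ratios on the median gene. Ltf was just under it at 1.82 (1.70 to 1.96). The primary granule genes were all below 2. Elane stood at 1.57 (1.44 to 1.71), Prtn3 at 1.56 (1.37 to 1.79), Ctsg at 1.46 (1.30 to 1.65) and Mpo at 1.30 (1.24 to 1.35). Of all detected genes, 13.6% had a ratio at least as high as that of Mpo, so a ratio like that of Mpo was common between these libraries.

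**Figure D2:**
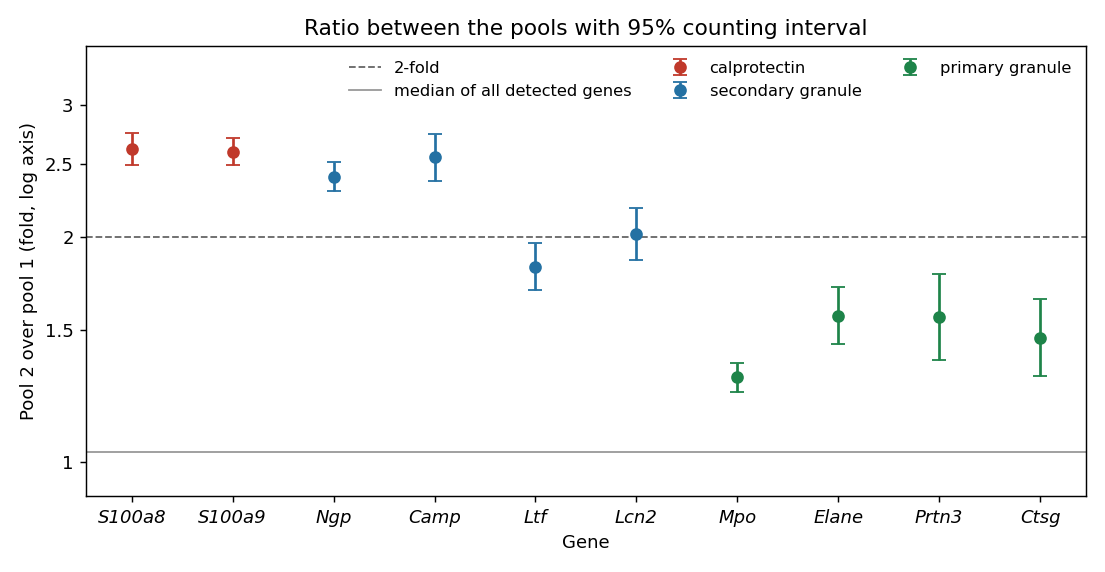
Ratio of pool 2 over pool 1 (log axis) for each gene, with its 95% counting interval. A dashed line marks 2-fold and a grey line the median of all detected genes. The calprotectin genes lie at 2.62 and 2.6, the secondary granule genes between 1.82 and 2.55 and the primary granule genes between 1.30 and 1.57.

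The classes were then compared by their summed reads. Calprotectin had 14020 reads in pool 2 and 5479 in pool 1 (ratio 2.61, interval 2.53 to 2.69). The secondary granule genes had 13160 reads in pool 2 and 5934 in pool 1 (ratio 2.26, 2.19 to 2.33), and the primary granule genes 7250 in pool 2 and 5382 in pool 1 (ratio 1.37, 1.33 to 1.42). The calprotectin ratio was thus 1.90 times that of the primary granule genes (1.81 to 1.99), and the secondary granule ratio 1.65 times (1.57 to 1.73). Calprotectin exceeded the secondary granule genes by less, at 1.15 times (1.10 to 1.21). Sums weight the genes with most reads, which are S100a9, Ngp and Mpo.

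Taken gene by gene, the ratios separated the primary granule genes from all others. Each of the 8 pairs of a calprotectin with a primary granule gene, and each of the 16 pairs of a secondary with a primary granule gene, differed in ratio beyond the counting interval (unadjusted over 45 pairs, of which 36 did). Between calprotectin and secondary granule genes 6 of 8 pairs did, and the others were those of S100a8 and S100a9 with Camp. S100a8 and S100a9 did not separate from each other (1.01, 0.946 to 1.07), nor did Elane and Prtn3 (1.0, 0.855 to 1.18) or Ltf and Lcn2 (0.904, 0.811 to 1.01). Within the secondary granule class 4 of 6 pairs differed, those of Ngp and Camp with Ltf and Lcn2. The ratio of Camp was 1.40 times that of Ltf (1.26 to 1.55). That of Ltf was 1.16 times that of Elane (1.04 to 1.30), so the spread within this class exceeded that step between classes. Within the primary granule class, Mpo was lower in ratio than Elane and Prtn3 beyond the interval, and its interval against Ctsg reached 1 (0.885, 0.780 to 1.0). Expressed as levels, S100a9 stood at 9.05 times Mpo in pool 2 and 4.52 times in pool 1, and Camp at 2.35 times Mpo in pool 2 and 1.19 times in pool 1.

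The nearest protein-coding genes, 2 on each side of each gene and not counting the 10 themselves, mostly did not share these ratios. Of 32 distinct neighbours 18 were detected, with a median log2 ratio of -0.06, and 1 of the 18 was at least 2-fold higher in pool 2. It was S100a6, a calcium-binding S100 gene on the S100a8 side of the calprotectin pair, at 344 RPKM in pool 2 and 158 RPKM in pool 1. The gene between S100a6 and S100a8, S100a7a, was at 0.204 RPKM in pool 2 and listed at 0 in pool 1. Beside Elane, Cfd (complement factor D) was listed at 0 in both pools, while Ptbp1, an RNA-binding protein gene beyond Prtn3, was at 111 RPKM in pool 2 and 119 RPKM in pool 1. Lpo, a peroxidase gene adjacent to Mpo, was at 0.0172 RPKM in pool 2 and listed at 0 in pool 1. On one side of Ctsg the granzyme genes Gzme and Gzmd were listed at 0 in both pools. On its other side the basophil protease gene Mcpt8 was at 16.6 RPKM in pool 2 and 26.7 RPKM in pool 1. Around Camp, Ngp and Ltf the detected neighbours were Nme6, Cdc25a, Map4, Ptpn23, Scap, Klhl18, Ccrl2 and Lrrfip2, with ratios from 0.578 for Ccrl2 to 1.38 for Cdc25a. The detected neighbours of Lcn2 ranged from 0.772 for Ciz1 to 1.52 for 1110008P14Rik, and those of Mpo were Supt4a at 1.22 and Mks1 at 0.794.

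**Figure D3:**
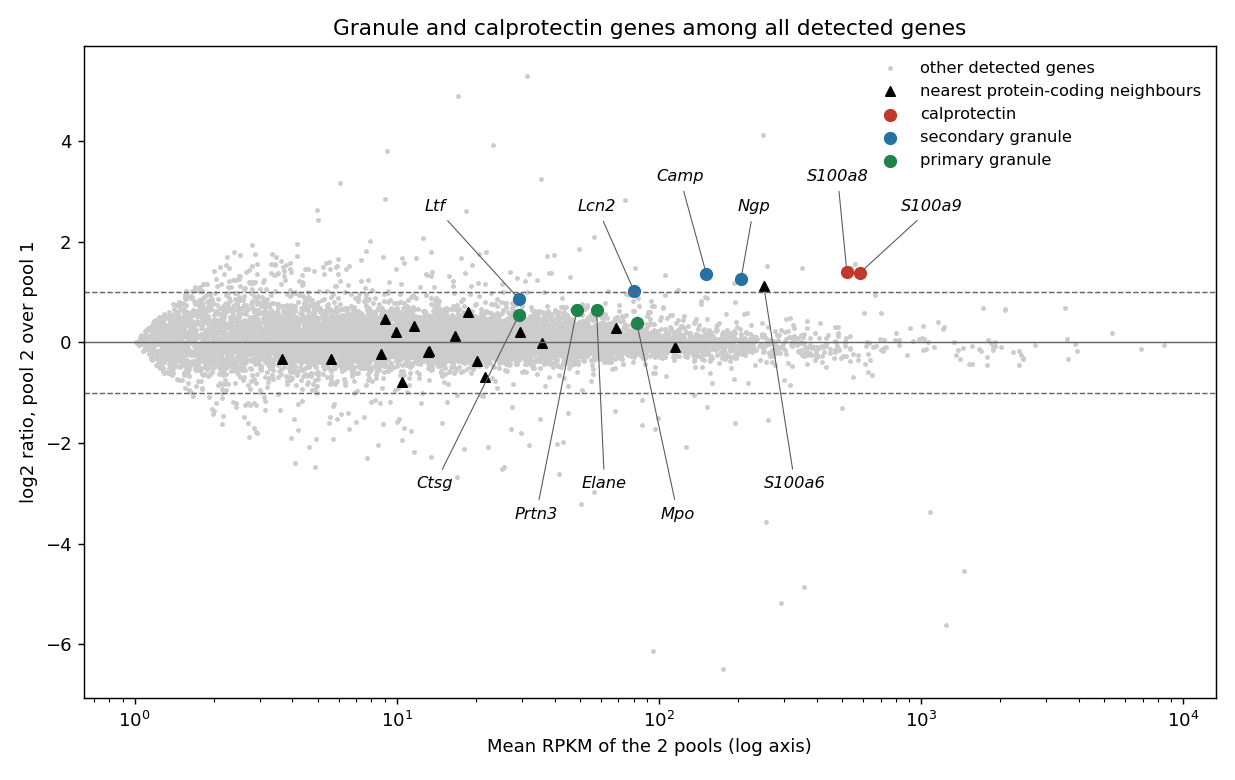
Mean RPKM of the 2 pools (log axis) against the log2 ratio of pool 2 over pool 1 for all detected genes (grey), the detected protein-coding neighbours (triangles) and the 10 granule and calprotectin genes (coloured by class). Dashed lines mark 2-fold. S100a8 and S100a9 lie at log2 ratios of 1.39 and 1.38 among the abundant genes, and S100a6 is the triangle above the 2-fold line at 1.12.

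Other granule genes were mostly higher in pool 2. Of 20 further secondary, tertiary and late granule genes 14 were detected, and pool 2 was the higher for 13 of these and at least 2-fold higher for 6, with a median log2 ratio of 0.87. The 6 were Chi3l3 (a chitinase-like secreted protein, now Chil3), Mmp25, Mmp9 (gelatinase B), Cd177, Hp (haptoglobin) and Lrg1. Chi3l3 was at 56.1 RPKM in pool 2 and 21.6 RPKM in pool 1. Ratios of the 6 ran from 2.16 for Hp (1.88 to 2.51) to 2.63 for Lrg1 (1.42 to 5.65). Lrg1 had 35 reads in pool 2 and 13 in pool 1. By the mean of the pools, Anxa1, Pglyrp1 and Retnlg were the most abundant. Anxa1 was at 85.4 RPKM in pool 2 and 55.1 RPKM in pool 1, and Pglyrp1, a peptidoglycan recognition protein, at 53.6 in pool 2 and 40.02 in pool 1. Retnlg, a resistin-like gene, was the 1 detected gene of the list that was not higher in pool 2, at 41.1 RPKM in pool 2 and 48.3 RPKM in pool 1. Stfa2, of a family of near-identical stefin copies among which reads may be split, was listed at 0 in both.

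Of 10 other primary granule and protease genes 8 were detected, and pool 2 was the higher for 7 of these and at least 2-fold higher for 1, with a median log2 ratio of 0.70. That 1 was Fcnb (ficolin B) at 13.6 RPKM in pool 2 and 4.15 RPKM in pool 1, for a ratio of 3.2 (2.57 to 4.20), above those of the 4 primary granule genes. Ctsc, the protease that activates elastase, proteinase 3 and cathepsin G, was at 56.9 RPKM in pool 2 and 36.0 RPKM in pool 1. Its ratio of 1.58 lay near those of Elane and Prtn3. Lyz2 (lysozyme) was at 198 RPKM in pool 2 and 107 RPKM in pool 1. Srgn, a proteoglycan core of granules that lymphocytes also make, was at 813 RPKM in pool 2 and 838 RPKM in pool 1, and Bpi was listed at 0 in both.

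Surface receptors of neutrophils were low. Their 12 listed genes summed to 30.2 RPKM in pool 2 and 20.6 RPKM in pool 1, 5 of the 12 were under 1 RPKM in both pools, and 0 were listed at 0 in both. Ly6g, the defining surface marker of mouse neutrophils, was at 7.34 RPKM in pool 2 and 3.91 RPKM in pool 1, from 59 and 32 reads in those pools. Csf3r, the G-CSF receptor, was at 1.78 RPKM in pool 2 and 0.819 RPKM in pool 1, and the chemokine receptor gene Cxcr2 at 0.464 in pool 2 and 0.163 in pool 1. Csf3r and Cxcr2 did not reach 1 RPKM in pool 1. The lowest level among the 10 granule and calprotectin genes, 20.7 RPKM for Ltf in pool 1, was above the highest among the receptors, that of Ly6g in pool 2. By mean level the most abundant receptor genes were Fcgr3, Tlr4 and Ly6g, and of the 4 that reached 1 RPKM in both pools 0 were 2-fold apart. That limit leaves out the other receptor genes, all low in pool 1. At least 2-fold higher in pool 2 were Csf3r (ratio 2.05, 1.62 to 2.95), Cxcr2 (2.15, 1.35 to 6.59), Fpr1 (3.69, 2.1 to 11.4), Fpr2 (2.01, 1.24 to 3.78) and Clec4d (2.38, 1.18 to 8.15). These ratios are on RPKM + 0.1, which lowers them at such levels, while the intervals are of reads without it. Of these intervals only that of Fpr1 lay above 2. Clec4e (1.92, 0.971 to 10.1), Mrgpra2b (1.19) and Fcgr4 (1.02) were under 2-fold on RPKM + 0.1. Without the 0.1, Clec4e was more than 2-fold higher in pool 2. It was at 0.280 RPKM in pool 2 and 0.0982 RPKM in pool 1, from 14 and 5 reads in those pools. Of the 17233 genes above 0 in either pool, 1535 were 2-fold apart either way without the limit of 1 RPKM. With it 282 of 11013 were (2.56%). The receptors named above were counted in the direction of pool 2 only. The share among genes as low as these receptors was not computed. Fcgr3 was at 7.12 RPKM in pool 2 and 6.03 RPKM in pool 1, and Tlr4 at 5.56 in pool 2 and 5.75 in pool 1.

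Among 9 myeloid transcription factors, all detected, Cebpe alone was at least 2-fold higher in pool 2. Cebpe, which drives secondary granule genes, was at 5.95 RPKM in pool 2 and 1.92 RPKM in pool 1, for a ratio of 3.0 (1.93 to 5.14, from 73 reads in pool 2 and 24 in pool 1). Cebpb and Klf4 went the other way, with Cebpb at 8.51 RPKM in pool 2 and 36.2 RPKM in pool 1, and Klf4 at 4.51 in pool 2 and 29.3 in pool 1. Gfi1, which both ILC2 and granulocyte precursors need, was at 47.9 RPKM in pool 2 and 34.98 RPKM in pool 1. The lowest of the list was Cebpd at 1.45 RPKM in pool 2 and 1.14 RPKM in pool 1.

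The NADPH oxidase makes the oxidants that Mpo uses. Of its 6 subunit genes 3 were higher in pool 2 and 0 were 2-fold apart, with a median log2 ratio of -0.01. Cyba was at 623 RPKM in pool 2 and 621 RPKM in pool 1, Rac2 at 463 in pool 2 and 502 in pool 1, and Ncf4 at 68.4 in pool 2 and 69.4 in pool 1. The catalytic subunit gene Cybb, at 32.5 RPKM in pool 2 and 19.8 RPKM in pool 1, had the highest ratio of them, 1.64 (1.55 to 1.74), and Ncf1 followed with 1.35 (1.05 to 1.76). Of 14 other S100 and S100-related genes 8 were detected and only S100a6 was 2-fold apart. S100a10 at 1042 RPKM in pool 2 and 976 RPKM in pool 1, and S100a4 at 846 in pool 2 and 564 in pool 1, were in or above the range of the calprotectin genes. S100g was listed at 0 in both pools.

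Receptors of the granule proteins, and a list of protease inhibitors not all of which act on them, were also measured. Among 8 protease inhibitors 5 were detected and 0 were 2-fold apart. Serpinb1a, an inhibitor of elastase, proteinase 3 and cathepsin G, was at 55.5 RPKM in pool 2 and 30.3 RPKM in pool 1, for a ratio of 1.83 (1.71 to 1.97). Serpina3g was at 142 RPKM in pool 2 and 132 RPKM in pool 1, and Cstb (cystatin B) at 68.3 in pool 2 and 72.1 in pool 1, while Serpina1a had 1 read in pool 2 and 0 in pool 1. Among 8 receptors of calprotectin, lipocalin 2, lactoferrin and cathelicidin 4 were detected and 0 were 2-fold apart. Bsg, a calprotectin receptor, was at 151 RPKM in pool 2 and 139 RPKM in pool 1, P2rx7 at 22.4 in pool 2 and 12.7 in pool 1, and Lrp1 at 0.335 in pool 2 and 0.272 in pool 1.

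Markers of other marrow cells were set beside the granule genes. Eosinophil markers differed more, summing to 659 RPKM in pool 2 and 60.3 RPKM in pool 1. Of 7 detected genes 6 were at least 2-fold higher in pool 2 (Prg2, Epx, Prg3, Ear1, Ear2 and Ear6), against 1.6% of all detected genes. Ccr3, the other detected gene, was at 6.56 RPKM in pool 2 and 4.61 RPKM in pool 1. Siglec5, not detected, was at 0.577 RPKM in pool 2 and 0.627 RPKM in pool 1. Prg2 was at 471 RPKM in pool 2 and 27.2 RPKM in pool 1, and Il5ra was lowest at 0.198 in pool 2 and 0.0556 in pool 1. Erythroid markers summed to 2655 RPKM in pool 2 and 942 RPKM in pool 1, and 6 of 8 were at least 2-fold higher in pool 2, among them Hba-a2 with a ratio of 2.92 (2.81 to 3.05) and Alas2 with 3.6 (3.35 to 3.90). The alpha and beta globin genes Hba-a1, Hba-a2, Hbb-b1 and Hbb-bs had ratios between 2.77 and 2.92, above those of the calprotectin genes. The globin and Ear genes have near-identical copies among which reads may be split. The part of these cell types in the granule gene ratios was not tested.

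The remaining marker lists had median log2 ratios from -0.52 (mast cell and basophil) to 0.13 (B cell). Monocyte and macrophage markers summed to 251 RPKM in pool 2 and 253 RPKM in pool 1, with 8 of 12 detected and 0 of them 2-fold apart. Ccr2 was at 183 RPKM in pool 2 and 202 RPKM in pool 1, Ly6c2 at 45.1 in pool 2 and 29.8 in pool 1, and Fcgr1 lowest at 0.253 in pool 2 and 0.306 in pool 1. Mast cell and basophil markers summed to 104 RPKM in pool 2 and 111 RPKM in pool 1. Of their 4 detected genes Fcer1a was at least 2-fold higher in pool 1, and Tpsb2 and Cma1 were listed at 0 in both. B cell markers summed to 452 RPKM in pool 2 and 654 RPKM in pool 1, with Cd79a at least 2-fold higher in pool 2 and Igkc in pool 1 among 4 detected. Pax5, a defining B cell factor, was at 5.09 RPKM in pool 2 and 0.123 RPKM in pool 1. Of the 16 ILC2 markers 0 were 2-fold higher in pool 2, and 1, Id2, was 2-fold higher in pool 1, at 287 RPKM in pool 2 and 710 RPKM in pool 1.

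**Figure D4:**
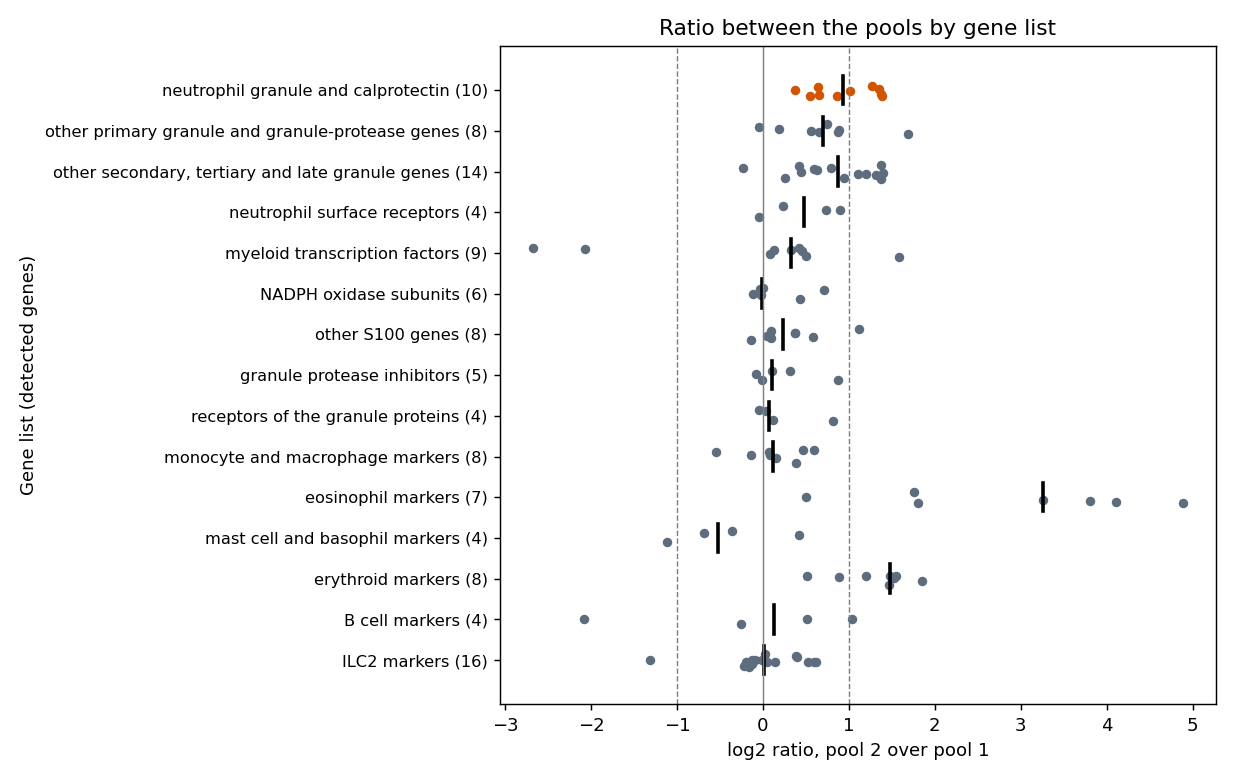
log2 ratio of pool 2 over pool 1 for the detected genes of each list (points, number detected in brackets), with a bar at the median and dashed lines at 2-fold. The granule and calprotectin genes have a median of 0.94, eosinophil markers 3.25, erythroid markers 1.48 and ILC2 markers 0.01.

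The genes with the ratio most like that of the group were sought among the 782 other genes with a mean of 100 RPKM or more, by distance to the group's median log2 ratio. With 2 libraries this ratio is the single measure of likeness. The nearest 5 were Txnip at 878 RPKM in pool 2 and 457 RPKM in pool 1, Ikzf3 at 138 in pool 2 and 71.7 in pool 1, Cd3g at 195 in pool 2 and 104 in pool 1, Lyz2 and Slfn2. Lyz2 is itself a granule gene. Txnip (a thioredoxin inhibitor), Ikzf3 (a lymphoid factor) and Cd3g (a T cell receptor complex chain) are not known as granule genes.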

How the data were processed

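RNA-seq of ILC2 progenitors was deposited as 1 file for each of 2 libraries of 1 group. Per the labels' protocols, 100 ng of total RNA entered the Illumina TruSeq preparation. The authors deposited RPKM values for each Entrez gene. The tools listed by the submitters' processing notes, without roles, are featureCounts, edgeR (3.8.2 and 3.22.0) and CASAVA 1.8.2, with the mm10 build. No aligner or strand setting is given in the sources used here. Nothing says how the pools relate beyond being separate pools of mice.

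Whole reads were searched for in the RPKM steps: library totals were found, and each gene was given the shortest length, of 20 to 130000 bases, at which both of its values were whole reads (relative tolerance 2e-09). One was found for 17204 of 17233 genes above 0 (99.8%), against 1.40% of 1000 genes with a total wrong by 1 part in 1000. In simulated data, the true reads were a whole multiple (1 included) of the reads found for 100% of 1000 genes. Read numbers are lower bounds, since a multiple of the length also works. The main measure remained log2(RPKM + 0.1), which understates the difference of low genes. A gene was detected at 1 RPKM or more in both pools and called at a 2-fold ratio. Intervals are Clopper-Pearson intervals of the read ratio, and exact conditional intervals for a ratio of ratios. Python 3.11.15, scipy 1.17.1 and pandas 2.3.3 were used.

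The 10 genes and 14 further lists (148 entries, some genes on several) were chosen with earlier results of these data known. Of all listed names, 155 matched by symbol and 3 by ID. The rule for named genes takes all 10 genes, the 3 highest, the lowest and the called members of each list, the neighbours and the 5 most alike genes. Cybb, Ncf1, Csf3r, Cxcr2, Fpr1, Fpr2, Clec4d, Clec4e, Fcgr4, Ccr3, Siglec5 and Pax5 were named after their values were seen. The promoter motifs other than TTGCNNAA were also added then. Protein sequences were not used here.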

Additional observations from a re-analysis of the deposited data

How the results depend on the processing

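The number of the 10 genes called 2-fold apart was 5 with a pseudocount of 0.01 RPKM, with recovered reads, without a filter and with a filter of 5 RPKM, and 4 with a pseudocount of 1 RPKM or median-centred ratios, where Lcn2 was not called. It was 8 at a fold of 1.5. The median log2 ratio of the 10 stayed between 0.89 and 0.94 under these alternatives, and the ratio of each gene stayed within its counting interval under the 4 alternatives run for single genes (both pseudocounts, centring and recovered reads). Among all genes, 282 were 2-fold apart, against 931 at a fold of 1.5, 1535 without a filter and 102 with a filter of 5 RPKM. The filters change how many genes are considered, and the fold changes only the threshold for the same 11013 genes. The summed share of 0.374% of all RPKM ranged from 0.222% to 0.526% with single pools left out and was 0.128% as a share of reads, in which long genes weigh more. No paired analysis was possible because the series has 1 group. Depth did not limit the 10 genes, the lowest of which by recovered reads, Prtn3, had at least 572 in pool 2 and 373 in pool 1. The length found for Prtn3 was 486 bases and its longest coding transcript has 1025, so its true reads may be more. Genes such as Ly6g, Csf3r, Cxcr2, Cebpe and Lrg1 rest on fewer recovered reads.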
